A study of Mus musculus with 2 samples.

Results

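Sox genes encode transcription factors with an HMG box, and 10 of them were followed here in fetal mouse liver with a conditional knockout of Prox1 and in wild-type liver: Sox4, Sox5, Sox6, Sox7, Sox9, Sox11, Sox12, Sox13, Sox17 and Sox18. They were taken as the biliary, endothelial and erythroid members of the family, and each was represented by every probe set that the platform annotation ties to that gene alone. This gave 37 probe sets for 10 genes, out of 18193 genes that have such a probe set. The tissue was whole liver from mouse embryos at E14.5, strain NMRI/C57Bl6. One liver RNA sample was Prox1 f/f;Foxa3Cre: Cre driven by Foxa3, a gene of gut and liver endoderm, recombines a floxed Prox1 gene. The other was labelled wild-type, with no floxed allele or Cre named. Each genotype has 1 Affymetrix array, so each value given is 1 reading without a replicate error, and the genotypes could not be tested against each other. The number of embryos behind each RNA sample and the floxed part of Prox1 are not stated in the labels.

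Sox proteins bind a short AT-rich site in the minor groove of DNA and bend it, and they act with partner factors that differ between tissues. The family is divided into groups by sequence. SoxC (Sox4, Sox11, Sox12) is active in many embryonic progenitors, SoxD (Sox5, Sox6, Sox13) in cartilage, red cells and lymphocytes, SoxE (Sox9) in cartilage and bile duct precursors, and SoxF (Sox7, Sox17, Sox18) in endoderm and blood vessels. In mouse liver Sox9 marks the first biliary cells and acts with Sox4 in the shaping of bile ducts, while Sox18 switches on Prox1 in the endothelium that forms lymphatic vessels.

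Prox1 read 221.8 on the Prox1 f/f;Foxa3Cre array and 340.3 on the wild-type array at its brightest probe set, a log2 difference of -0.62, and its other probe sets were also lower in the knockout. Since the position of these probe sets relative to the floxed part is not stated, they do not measure how complete the deletion was. All differences are Prox1 f/f;Foxa3Cre minus wild-type on the log2 scale of the MAS5 signal. Signals below a floor of 112.6, the higher of the arrays' medians, were raised to it. A probe set above the floor on 1 array only therefore gives a bound, written "at least", and 1 below it on both arrays gives no difference. A gene was represented by its brightest probe set. The arrays also differed in sex-linked RNA: Xist read 365.7 in the knockout and 11467 in wild-type, and the Y-linked Eif2s3y, Uty and Kdm5d were above the floor in the knockout and below it in wild-type. The labels give no sex, and the part of this difference in the Sox results cannot be told apart from genotype. The genes of albumin (Alb), alpha-fetoprotein (Afp) and transthyretin (Ttr), defining products of fetal hepatocytes, read 32396 or more on both arrays.

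Of the 10 Sox genes, 2 were at least 2-fold higher in the knockout (Sox11 and Sox4), 0 were at least 2-fold lower and 8 had values between. Of these 8, Sox9 and Sox5 gave only bounds, so their differences may be larger. Among all 11433 measured genes, 3.27% were higher by 2-fold or more and 2.13% lower by that much. All 10 genes were measured on at least 1 array and 8 on both. The exceptions were Sox9, above the floor in the knockout only, and Sox5, above it in wild-type only. The median difference of the 10 genes was 0.18, against 0.03 for all measured genes, with 8 genes above 0 and 2 below, while 53.9% of all measured genes were above 0. Dim genes lay higher: those with a mean signal below 250, which include Sox5, Sox7, Sox9 and Sox11, had a median of 0.15. Of the 37 probe sets, 25 were above the floor on at least 1 array and 5 of these were at least 2-fold higher, against 2.69% of 20409 such probe sets overall. None of the 25 was 2-fold lower, against 1.76% overall. All 5 belonged to SoxC genes, 4 of them to Sox4, and probe sets of 1 gene read the same RNA and are not replicates.

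**Figure D1:**
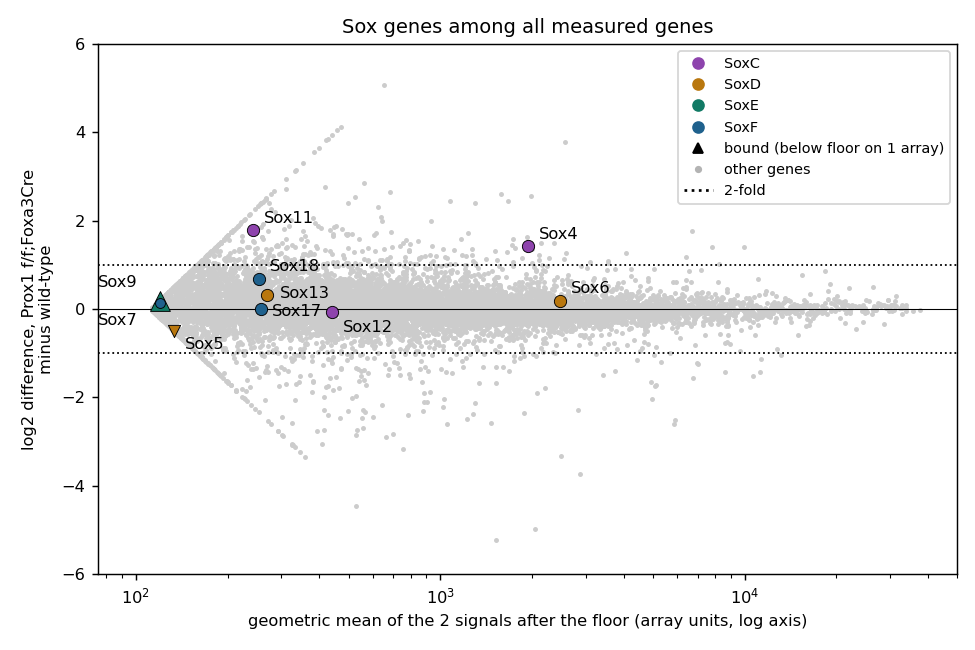
Log2 difference, Prox1 f/f;Foxa3Cre minus wild-type, against the geometric mean signal (log axis) for all 11433 measured genes in grey and the 10 Sox genes in colour by group; triangles are bounds and point the way in which the difference may be larger. Sox11 (1.79) and Sox4 (1.43) lie above the 2-fold line, and the other 8 Sox genes lie between the lines.

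Sox4 was higher in the knockout on every probe set that could be measured. It is the SoxC factor known from lymphoid, neural and biliary progenitors. Its brightest probe set (1433575_at) read 3176 in the knockout and 1181 in wild-type, 2.69-fold higher. A second Sox4 probe set read 436.4 in the knockout and 162.4 in wild-type. Another read 397.3 in the knockout and 147.0 in wild-type. The log2 difference was 1.43 on each of these 3 Sox4 probe sets. The next read 243.7 in the knockout and 112.2 in wild-type, just under the floor, and so was at least 2.16-fold higher. The dimmest of those measured read 196.0 in the knockout and 129.1 in wild-type, a log2 difference of 0.60. The remaining 3 Sox4 probe sets stayed under the floor throughout, at 7.70 to 35.1 in the knockout and 9.56 to 26.5 in wild-type, with 1 higher and 2 lower. Among 3392 genes with a mean signal between 1000 and 5000, 95% of differences lay between -0.70 and 0.75, and 14 genes (0.413%), Sox4 included, were as high as Sox4.

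Sox11 also stood higher in the knockout, at lower signals than Sox4. Its log2 difference of 1.79 was above that of Sox4, but the order turned with a pseudocount (1.26 for Sox11 and 1.35 for Sox4). With the floor at the 60th percentile Sox11 gave only a bound, at least 1.24, against 1.43 for Sox4. The median over probe sets was 0.68 for Sox11 and 1.43 for Sox4, but 5 of the 6 Sox11 values are bounds. Neither of these settings can give the order. Sox11 is the SoxC factor best known from neural and mesenchymal progenitors. Its brightest probe set (1453125_at) read 449.9 in the knockout and 130.2 in wild-type, 3.46-fold higher. The other 5 Sox11 probe sets were all above the floor in the knockout and below it in wild-type. They read 120.2 to 203.5 in the knockout and 51.9 to 108.0 in wild-type, which gives log2 bounds from 0.09 to 0.85. All 6 Sox11 probe sets were thus higher in the knockout, but 1 of 6 passed 2-fold with the floor. Among 2808 genes with a mean signal below 250, at least 13 (0.463%) were as high as Sox11, with genes that gave only a bound counted at it.

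Sox12, the third SoxC gene, which is broadly expressed in embryos, did not share this difference. Its brightest probe set (1455562_at) read 433.2 in the knockout and 451.2 in wild-type, a log2 difference of -0.06. A second probe set read 202.1 in the knockout and 160.5 in wild-type, a log2 difference of 0.33, and the last was under the floor at 12.5 in the knockout and 3.89 in wild-type. The direction of Sox12 therefore depends on the probe set.

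**Figure D2:**
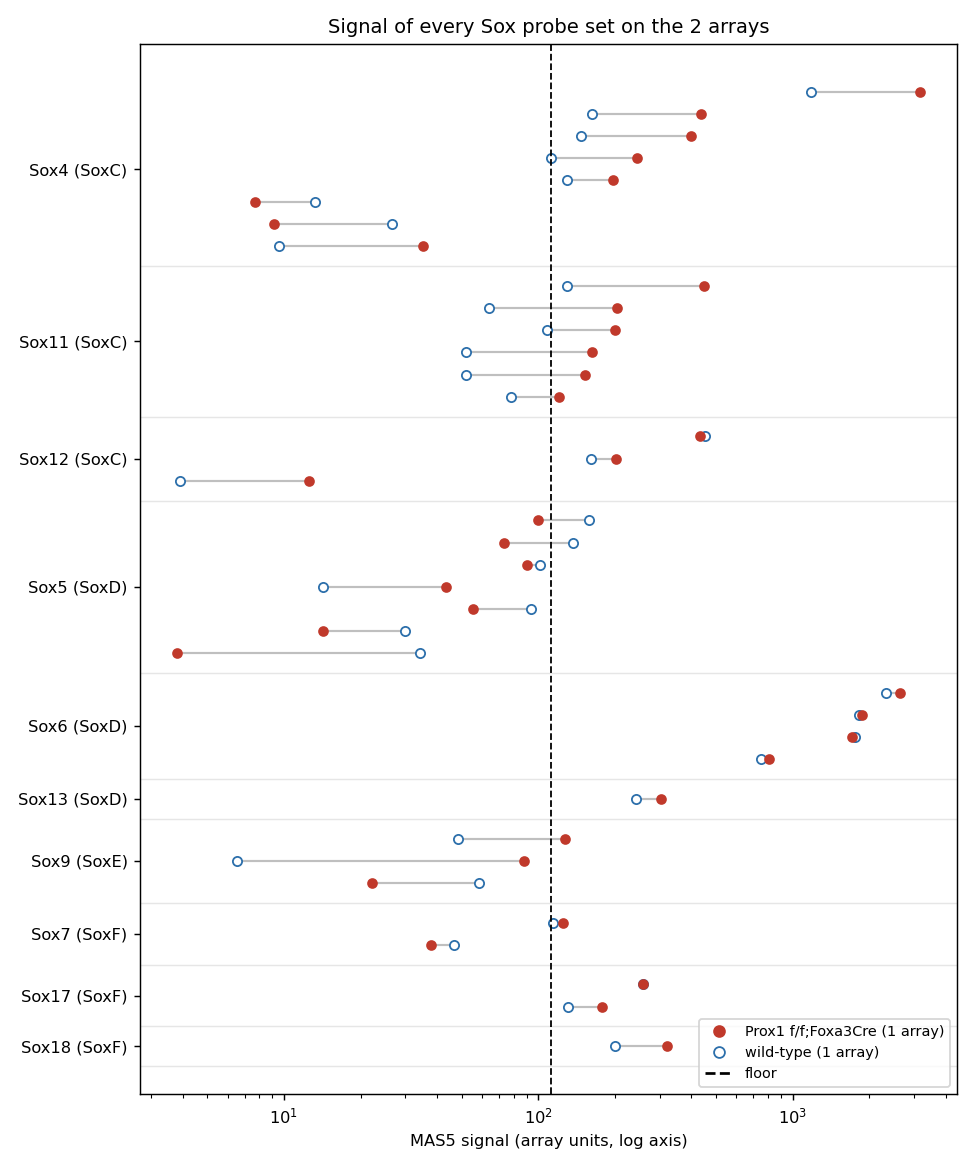
MAS5 signal (log axis) of all 37 Sox probe sets on the Prox1 f/f;Foxa3Cre array (filled) and the wild-type array (open), grouped by gene, with the floor of 112.6 dashed. The filled points of Sox4 above the floor and of all Sox11 probe sets lie to the right of the open ones, the pairs of Sox6 nearly coincide, and most Sox9 and Sox5 points lie below the floor.

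The promoters of the SoxC genes are shown because 2 of these genes were higher in the knockout and the third was not. Each window runs from 250 bases before to 50 bases after the annotated start, 5′ to 3′ on the gene's strand, from RefSeq on GRCm38.p6, and 6 of the 10 Sox genes had a window in the table used. Capitals mark matches on either strand to CCAAT (the CCAAT box), TGGGAA (a core of the site of RBPJ, the DNA-binding factor of Notch signalling) and CACNNCT (1 form of the site of Prospero, the Drosophila relative of Prox1). In the Sox4 window a CCAAT and a TGGGAA overlap by a base.
Sox4, chr13:28953650-28953949, minus strand: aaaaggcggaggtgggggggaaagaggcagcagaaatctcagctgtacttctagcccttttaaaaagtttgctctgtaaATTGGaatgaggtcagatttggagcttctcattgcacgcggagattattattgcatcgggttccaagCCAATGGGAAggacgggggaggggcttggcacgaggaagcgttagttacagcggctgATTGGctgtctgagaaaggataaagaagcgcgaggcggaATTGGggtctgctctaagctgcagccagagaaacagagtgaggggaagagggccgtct
Sox11, chr12:27342669-27342968, minus strand: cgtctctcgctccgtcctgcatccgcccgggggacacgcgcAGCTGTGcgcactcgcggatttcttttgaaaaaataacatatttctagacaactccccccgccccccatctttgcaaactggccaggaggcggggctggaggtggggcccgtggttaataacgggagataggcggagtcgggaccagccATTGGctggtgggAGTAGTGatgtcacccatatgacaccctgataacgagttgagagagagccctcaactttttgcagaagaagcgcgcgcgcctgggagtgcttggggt
Sox12, chr2:152397997-152398296, minus strand: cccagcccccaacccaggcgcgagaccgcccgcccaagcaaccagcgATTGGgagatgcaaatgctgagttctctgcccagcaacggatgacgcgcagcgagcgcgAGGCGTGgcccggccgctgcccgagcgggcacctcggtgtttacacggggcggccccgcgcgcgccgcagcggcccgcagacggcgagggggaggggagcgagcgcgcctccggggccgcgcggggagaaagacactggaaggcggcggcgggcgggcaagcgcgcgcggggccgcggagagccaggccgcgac

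CCAAT occurred 4 times in the Sox4 window and once each in the Sox11 and Sox12 windows, and 37.4% of 32851 windows of the same length hold it. TGGGAA occurred in the Sox4 window and in neither of the others, and 25.6% of windows hold it. CACNNCT occurred at 2 places in the Sox11 window and 1 in the Sox12 window, and 50.3% of windows hold it. TATAAA and the Sox-type sites ACAAAG and ACAATG have no match in these 3 windows, against 13.6%, 18.7% and 12.6% of all windows. GC content was 52.0% for Sox4, 58.7% for Sox11 and 76.7% for Sox12, against a median of 52.7%. The number of CG dinucleotides was 12 for Sox4, 21 for Sox11 and 47 for Sox12, against a median of 7. These matches describe the letters only, and binding was not measured.

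Genes reported as SoxC targets in other tissues gave 2 measured members of 4, with 0 at least 2-fold apart. Tead2, a partner of the Hippo pathway coactivators, read 317.5 in the knockout and 216.9 in wild-type, 1.46-fold higher. Ezh2, a histone methyltransferase, read 4167 in the knockout and 4141 in wild-type. The neuronal genes Tubb3 (57.1 in the knockout and 6.07 in wild-type) and Dcx (at most 44.9 in the knockout and 22.5 in wild-type) were below the floor on both arrays.

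Genes of hepatic mesenchyme were higher together with Sox4 and Sox11. Among all measured genes 3.27% were higher by 2-fold or more, 2.13% lower by that much and 53.9% above 0. Of 19 mesenchyme and stellate cell genes, all measured, 11 were higher in the knockout by 2-fold or more and 0 lower by that much, with a median of 1.13 and 18 above 0. Their summed signal was 43538 in the knockout and 20930 in wild-type. The farthest were the collagen chains Col1a1 (3.96-fold) and Col6a1 (3.83-fold), the cadherin Cdh11 (3.25-fold) and the transcription factor Hand2 (3.24-fold). Among those measured on both arrays, which is all but Wt1, 2 had a larger difference than Sox11 and 7 a larger one than Sox4. In whole organ RNA a larger number of cells of a type and more RNA per cell cannot be told apart, and the part of mesenchymal cells in the Sox4 and Sox11 differences was not tested.

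Sox9 was dim on both arrays, and its difference could be bounded only weakly. Sox9 is the SoxE factor that marks the ductal plate, the layer of hepatoblasts next to the portal vein that forms bile ducts. Its brightest probe set (1451538_at) read 127.4 in the knockout and 48.5 in wild-type, at least 1.13-fold higher. With the floor at the 30th percentile the difference was 1.39, past 2-fold. A second Sox9 probe set read 88.2 in the knockout and 6.52 in wild-type, and the last went the other way at 22.1 in the knockout and 58.5 in wild-type. All but 1 of these 6 readings lay below the floor, so neither a large difference nor none could be shown for Sox9 at this signal.

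Markers of biliary epithelium were in part far higher in the knockout. Of 20 genes in the list 17 could be assessed and 11 were measured, of which 4 passed 2-fold upward and 0 downward, with a median of 0.45. Of the 11, 10 were above 0 and 1 below. Among all measured genes 3.27% were higher by 2-fold or more, 2.13% lower by that much and 53.9% above 0. Since 6 of the 11 values are lower bounds, the true median may be higher. The 4 were the keratin Krt19 (982.4 in the knockout and 70.5 in wild-type, at least 8.72-fold), the tight junction genes Cldn7 (714.2 in the knockout and 47.6 in wild-type) and Cldn6 (638.4 in the knockout and 17.5 in wild-type), and the adhesion protein Epcam (at least 2.42-fold). Krt7, Krt19, Epcam, Cldn3, Cldn6 and Cldn7 were all below the floor in wild-type, so as measured genes they could only come out higher. The genes above the floor on both arrays were all under 2-fold apart, from -0.43 (Prom1) to 0.54 (Bicc1). Onecut1, Cldn4, Cdh6, Pkhd1, Cftr and Muc1 were below it on both arrays. The summed signal of the 11 measured genes was 10482 in the knockout and 6416 in wild-type. The largest single part came from the water channel Aqp1 (4107 in the knockout and 3005 in wild-type), which red cells also make. Since Sox9 and 6 of the 11 biliary genes gave only bounds, Sox9 was not ranked among them.

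The Notch pathway, which induces Sox9 in the ductal plate, gave 8 measured genes of 10, with 1 at least 2-fold higher, 0 lower and a median of 0.35. Notch1, a receptor, read 593.4 in the knockout and 295.3 in wild-type (2.01-fold), but its second probe set read 191.6 in the knockout and 189.9 in wild-type. The target Hes1 read 424.4 in the knockout and 272.5 in wild-type (1.56-fold). The DNA-binding partner Rbpj was 1.38-fold higher, the ligand Jag1 1.32-fold and the receptor Notch2 1.22-fold higher. Mib1, a ligase that activates the ligands, read 872.1 in the knockout and 890.5 in wild-type. The target Heyl reached the floor in the knockout only, at 114.7 against 60.4 in wild-type, and the targets Hey1 and Hes5 were below it on both arrays. Tgfbr2, a TGF-beta receptor included because biliary cells regulate it, was 1.24-fold higher at its brightest probe set and at least 1.39-fold lower at another. Cartilage genes driven by Sox9 with Sox5 and Sox6 were mostly dim. Of 11 such genes 3 were measured, each above the floor on 1 array only. Their values are bounds, all under 2-fold, so whether any was 2-fold apart could not be shown. The farthest were the matrix linker Hapln1 (191.1 in the knockout and 22.8 in wild-type) and the collagen Col11a1 (182.8 in the knockout and 72.2 in wild-type), both with bounds under 2-fold. The type II collagen gene Col2a1 and the proteoglycan gene Acan were below the floor on both arrays.

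Sox6 read nearly the same on both arrays on all of its probe sets. Sox6 is the SoxD factor of red cell precursors, where in mice it silences the embryonic globin Hbb-y. Its brightest probe set (1434918_at) read 2647 in the knockout and 2319 in wild-type, a log2 difference of 0.19. The next read 1878 in the knockout and 1822 in wild-type. Another read 1708 in the knockout and 1751 in wild-type, and the last 810.8 in the knockout and 753.2 in wild-type. All 4 Sox6 differences lay between -0.04 and 0.19. Erythroid genes were likewise close between the arrays. Of 14 measured, 0 were 2-fold apart in either direction, against 3.27% higher and 2.13% lower among all measured genes. The median of the 14 was -0.10, and their summed signal was 140666 in the knockout and 152333 in wild-type. The farthest of these were the transferrin receptor Tfrc (1.49-fold lower in the knockout), Hemgn (1.25-fold lower), the regulator Gata1 (1.23-fold lower) and Rhag (1.19-fold lower). Of the 14 erythroid genes, 13 had a lower value than Sox6 at its brightest probe set (0.19), while its other probe sets lay lower.

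Among embryonic globins and their regulators, 6 of 6 were measured, of which 0 passed 2-fold upward and 1 downward, with a median of -0.05. The shares of all measured genes were 3.27% upward and 2.13% downward. Hbb-y, the globin that Sox6 silences, read 25320 in the knockout and 27184 in wild-type. Hbb-bh1, another embryonic beta-like globin, read 9144 in the knockout and 18806 in wild-type, 2.06-fold lower, and its other probe sets had log2 differences of -1.20 and -1.19. Globin genes are alike in sequence, and the brightest probe sets of Hbb-y and Hbb-bh1 are of the type that can match related transcripts. Their split is therefore uncertain. A Hbb-y probe set of another type had a log2 difference of -0.28, and the -1.20 and -1.19 of Hbb-bh1 also came from that other type. The embryonic alpha-like globin Hba-x was 1.18-fold lower. The globin repressor Bcl11a differed by 0.15 with its 6 measured probe sets between -0.23 and 0.32, the erythroid activator Klf1 by -0.01, and Myb, a factor of early blood progenitors, by 0.26.

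The other SoxD genes gave smaller signals. Sox5, which acts with Sox6 in cartilage, was the gene with the lowest value of the 10. Its brightest probe set (1432189_a_at) read 100.02 in the knockout and 158.8 in wild-type, at least 1.41-fold lower. A second read 73.6 in the knockout and 137.1 in wild-type, at least 1.22-fold lower, and the other 5 of its 7 probe sets were under the floor on both arrays. Without a floor 6 of 7 Sox5 probe sets read lower in the knockout. Sox13, known from gamma-delta T cells and arterial walls, had 1 probe set, which read 302.5 in the knockout and 242.0 in wild-type (1.25-fold higher).

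The SoxF genes were all under 2-fold apart. Sox18, a factor of vascular and lymphatic endothelium, read 322.1 in the knockout and 199.8 in wild-type on its single probe set (1449135_at), 1.61-fold higher. Among 4425 genes with a mean signal between 250 and 1000, at least 8.50% were as high as Sox18, counted in the same way. Sox17, a factor of endoderm, fetal blood stem cells and arteries, read 258.7 in the knockout and 257.1 in wild-type at its brightest probe set and 177.3 in the knockout and 130.9 in wild-type at the other, log2 differences of 0.01 and 0.44. The first of these turned to -0.08 under quantile normalization, -0.06 under lowess correction and -0.01 with the median of all genes set to 0. It came from a probe set of the type that can match related transcripts. The other stayed above 0 in each alternative that gave it a value, down to 0.26 with the pseudocount. Since the probe sets differ, no direction is given for Sox17. Sox7, a vascular factor, read 125.3 in the knockout and 114.5 in wild-type, close to the floor. Its difference of 0.13 turned to -0.01 under quantile normalization, and its other probe set was below the floor on both arrays.

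Endothelial genes leaned the same way as Sox18. All 27 were measured, of which 0 passed 2-fold in either direction and 24 were above 0, with a median of 0.37. Among all measured genes 3.27% passed 2-fold upward, 2.13% passed it downward, 53.9% were above 0 and the median was 0.03. The summed signal of the 27 endothelial genes was 14196 in the knockout and 11310 in wild-type. Nrp1, a co-receptor for VEGF also made by other cells, was 1.89-fold higher, the arterial ligand Efnb2 at least 1.62-fold, Ramp2 1.51-fold and Plvap, a protein of endothelial pores, by 0.57 on the log2 scale. Sox18, at a log2 difference of 0.69, lay near the upper end of the endothelial genes measured on both arrays. The other SoxF genes lay near the lower end at their brightest probe sets. Of the 27 endothelial genes, 24 had a higher value than Sox17 (0.01) and 21 a higher value than Sox7 (0.13). The part of endothelial cell number in the Sox18 value was not tested.

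Genes known as SoxF targets in endothelium lay in both directions. Of 9 measured, 1 passed 2-fold upward and 0 downward, with 6 above 0, 3 below and a median of 0.38. Among all measured genes 3.27% passed 2-fold upward and 2.13% downward. The 3 below include Prox1 (-0.62), the gene recombined here, so its direction says nothing about SoxF targets. The gene past 2-fold was Notch1, given above. Nr2f2, the venous nuclear receptor that acts with Sox18 on Prox1, read 774.9 in the knockout and 466.2 in wild-type (1.66-fold), with another of its probe sets lower by 1.11-fold. The junction genes Cdh5 (1.38-fold) and Cldn5 (1.36-fold) and the guidance receptor Robo4 (1.30-fold) were also higher. Egfl7 was 1.14-fold higher at its brightest probe set and lower at its other 3. The adhesion molecule Vcam1 read 1574 in the knockout and 2896 in wild-type, 1.84-fold lower, and the Notch ligand Dll4 read 119.4 in the knockout and 175.6 in wild-type, 1.47-fold lower. Prox1 is listed because it is itself a target of Sox18 in lymphatic endothelium.

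**Figure D3:**
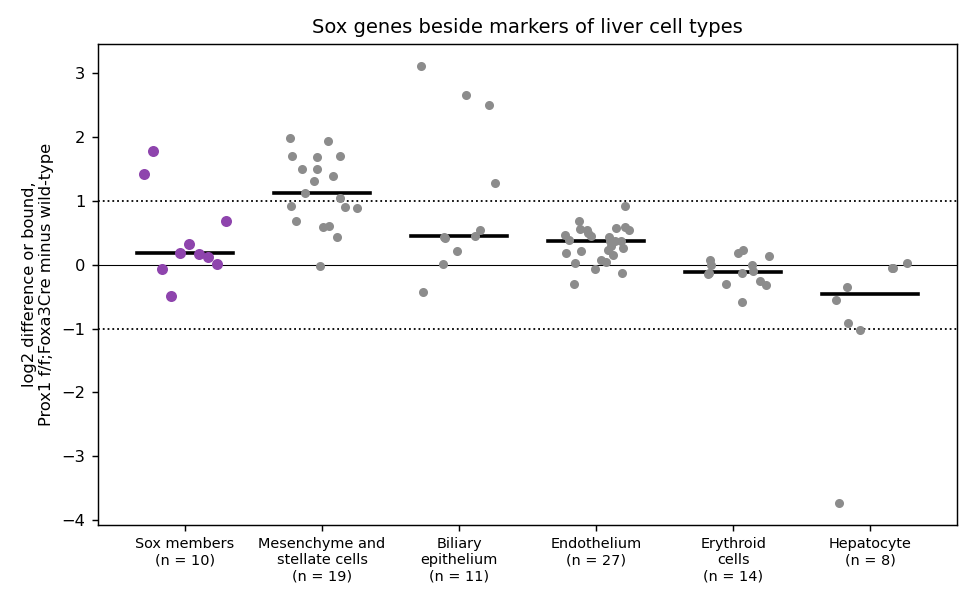
Log2 difference or bound, Prox1 f/f;Foxa3Cre minus wild-type, for the 10 Sox genes and for the measured genes of 5 cell type lists; each point is a gene, bars are medians, dotted lines mark 2-fold and sideways position within a column has no meaning. Sox11 (1.79) and Sox4 (1.43) lie within the ranges of the mesenchyme genes (median 1.13) and the biliary genes (median 0.45, from -0.43 to 3.12). Several biliary values are lower bounds, so the biliary median and upper end may be higher than drawn. The endothelial genes have a median of 0.37, the erythroid genes of -0.10 and the hepatocyte genes of -0.45.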

How the data were processed

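Liver RNA of 2 mouse embryo samples, 1 per genotype, was measured on Affymetrix arrays after one-cycle biotin labelling, per the labels' protocols. The authors deposited 1 linear intensity for each probe set on each array, and the submitters' processing notes name MAS5. The 2% trimmed mean was 500.0 on both arrays, so no rescaling was applied. Its version was not given in the sources used here. No detection calls were used. MAS5 subtracts mismatch signal, so dim probe sets scatter widely.

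Of 45101 probe sets, 64 controls were left out, 34958 had 1 gene symbol and 932 had several, and the latter name no gene. The array medians were 112.6 in Prox1 f/f;Foxa3Cre and 101.1 in wild-type. Across 10216 genes measured on both arrays the median log2 difference was 0.01, the middle 95% ran from -0.84 to 1.01 and the robust SD was 0.29. Genes were counted by size at 2-fold, and the number of arrays limits the precision. The Sox genes and gene lists were chosen with earlier results of these data known, and none is independent evidence of a direction. Named were all Sox members, Prox1, the sex-linked genes, all genes of the target, Notch and globin lists, and up to 4 with the largest difference in each other list. A few more were named after their values were seen: the biliary, cartilage, pancreas, gut and gallbladder genes given as below the floor, Wt1, Aqp1, Prom1, Bicc1, Alb, Afp and Ttr.

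Promoter windows came from RefSeq (GRCm38.p6), where the bases shared by 1629 overlapping windows on opposite strands matched in every case. Alternatives were floors at the 30th and 60th percentiles, none, a pseudocount of 100, quantile and lowess normalization, centring, the median over probe sets, probe set types, and 1.5-fold and 3-fold rules. The counting was tested on simulated arrays. Calculations ran in Python 3.11.15 with pandas 2.3.3 and numpy 2.4.6, lowess came from statsmodels 0.14.6, and trimmed means from scipy 1.17.1.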

Additional observations from a re-analysis of the deposited data

How the results depend on the processing

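No paired analysis was possible because each genotype has 1 array, and no sample could be left out. Sox4 was at least 2-fold higher in all alternatives except the 3-fold rule, with log2 differences from 1.35 to 1.46. The count of Sox genes at least 2-fold higher was 1 with the median over probe sets (Sox4) and 1 at 3-fold (Sox11). Under that median Sox11 was at 0.68 or more, since 5 of its 6 values are bounds. It was 3 without a floor or with it at the 30th percentile, where Sox9 was added at 1.39, and 3 at 1.5-fold, where Sox18 was added. The count of Sox genes at least 2-fold lower was 0 in every alternative run. Over all genes the share at least 2-fold higher was 5.48% with the floor at the 30th percentile, 13.0% with none, 2.55% at the 60th percentile, 0.875% at 3-fold and 9.91% at 1.5-fold. The corresponding shares lower were 2.88%, 8.08%, 2.01%, 0.892% and 5.23%. Sox11 was 1.26 with the pseudocount and at least 1.24, a bound, with the highest floor, at the 60th percentile. Of 85 alternative values for single Sox genes, 79 moved by no more than 0.29, 6 moved further and 0 of those at least 2-fold apart changed sign. Under 2-fold, the sign turned for Sox17, Sox7 and, with the median over probe sets at 0.14, Sox12. The split of 8 genes above 0 and 2 below became 6 and 4 with quantile normalization. It became 7 and 3 with lowess correction or centring, and 9 and 1 with the median over probe sets. With the floor at the 60th percentile 7 of the 10 genes were measured, so dim signal limits Sox5, Sox7 and Sox9 most.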

Other observations

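A further 10 Sox family genes could be assessed and were mostly below the floor. Sox1, Sox2, Sox3, Sox8, Sox14, Sox15 and Sox30 were below it on both arrays. Of the 3 measured (Sox21, Sox10 and Sry), 0 passed 2-fold and all were above 0. Sry gave only a bound, and as a Y-linked gene it cannot be told apart from the difference in sex-linked RNA. Its measured probe set is also of the type that can match related transcripts. Sox21, a SoxB factor of the nervous system, read 245.6 in the knockout and 150.8 in wild-type (1.63-fold) on 1 of 2 probe sets, the other reading 7.59 in the knockout and 11.9 in wild-type. Sox10, a SoxE factor of neural crest, read 265.4 in the knockout and 193.1 in wild-type (1.37-fold) on 1 of 3 probe sets. Its others read at most 18.1 in the knockout and 23.0 in wild-type. Of 8 neural crest and glia genes, 5 could be assessed and 2 were measured: Erbb3 read 492.7 in the knockout and 491.0 in wild-type, and Mbp 554.0 in the knockout and 715.4 in wild-type. Sry, the Y-linked founder of the family, read 139.8 in the knockout and 107.9 in wild-type on 1 probe set and 35.5 in the knockout and 3.09 in wild-type on the other, beside the Y-linked Eif2s3y at 1972 in the knockout and 0.866 in wild-type.

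Genes of the neighbouring endoderm organs, in which Sox9 and Sox17 are also active, were nearly all below the floor. Of 9 pancreas, gut and gallbladder genes, Pdx1, Ptf1a, Cpa1, Nkx6-1, Neurog3, Cdx1, Cdx2 and Barx1 were below it on both arrays. Vil1, which encodes the microvillus protein villin, read 259.6 in the knockout and 20.6 in wild-type, at least 2.30-fold higher. The hepatocyte list, measured for 8 of 10 genes, had 2 at least 2-fold lower, against 2.13% of all measured genes, and a median of -0.45. These were the plasma protein gene Ahsg (13.2-fold lower) and the transcription factor gene Cebpa (2.03-fold lower), followed by Apob (1.88-fold lower) and Hnf4a (1.46-fold lower).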
